A study of Mus musculus with 4 samples.

Results

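The 2 control lines of a 3T3-L1 adipogenesis study were compared with each other. FLAG cells carry the empty FLAG vector and sh-Luc cells express a hairpin RNA against luciferase, a gene that mouse cells lack. They were chosen as the controls named in the labels, and are 2 of the 4 RNA-seq samples of the study, which also holds FLAG-CACUL1 cells, which overexpress CACUL1, and sh-CACUL1 cells, in which a hairpin depletes it. All 4 lines were made by stable transfection of 3T3-L1, a cell line of mouse preadipocytes, and were collected on differentiation day 8. Adipogenesis had been started in confluent cells with 0.5 mM IBMX, 1 µg/mL dexamethasone, 5 µM rosiglitazone and 5 µg/mL insulin, after which medium with insulin was used. The FLAG vectors were selected with G418 and the hairpin vectors with Hygromycin B, and each line was grown from drug-resistant colonies, whose number is not given in the sources used here. Each line had 1 sample. Vector, selection drug, founding colonies and library therefore cannot be told apart, no difference below has a replicate check, and none was tested.

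3T3-L1 cells are the standard culture model of fat cell formation. Insulin, a glucocorticoid and a phosphodiesterase inhibitor induce C/EBPβ and C/EBPδ, which switch on PPARγ and C/EBPα, and these in turn activate the genes for lipid storage and for secreted adipokines. Rosiglitazone is a ligand of PPARγ. A control line shows the state from which an overexpression or a knockdown is measured, so the levels of these genes in FLAG and sh-Luc set the baselines of the study.

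The values are FPKM, which count fragments relative to transcript length and library size, and differences are given as FLAG minus sh-Luc on the log2(FPKM + 1) scale, which understates the difference of genes at low FPKM. From the steps in low FPKM values, depth was estimated at 14500000 fragments in FLAG and 24000000 in sh-Luc. The steps were matched only in part, with an alignment of 0.478 in FLAG and 0.404 in sh-Luc, where 1 is a full match. On a transcript of 2 kb, 1 fragment was then worth about 0.0345 FPKM in FLAG and 0.0209 in sh-Luc. Lower values on such a transcript stand for less than 1 fragment, and on a longer transcript 1 fragment is worth less. In bulk samples, fewer cells of a type and less RNA per cell cannot be told apart.

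Of 13085 genes, 2750 (21.0%) were at least 2-fold apart between the control lines. FLAG was higher at 1123 of them (8.58% of all genes) and sh-Luc at 1627 (12.4%). These shares are the background for the gene lists described here, and a count followed directly by names with log2 differences in parentheses gives all members counted, unless the names are said to be included. Other named members are examples, and those outside the naming rule were named after their values were seen. The largest differences lay on the FLAG side, where 135 genes were at least 8-fold higher, against 51 in sh-Luc. The median over all genes was -0.18, so the bulk of genes read slightly lower in FLAG, and the medians of gene lists are given after subtraction of this shift, which single-gene differences keep. Of the genes at least 2-fold apart, 40.8% were higher in FLAG. This split depended on scaling: it was 54.1% after quantile normalization, 62.55% after median-of-ratios scaling and 28.4% after rescaling each library to the same sum.

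The number of genes apart between the controls lay among the counts for the other pairs of lines. The count of 2750 genes compares with 1928 (14.7%) between FLAG and FLAG-CACUL1 and with 2788 (21.3%) between sh-Luc and sh-CACUL1, each a line beside its own control. Across vectors, sh-Luc and FLAG-CACUL1 were apart at 1296 genes (9.90%), the lowest count of the 6 pairs. FLAG and sh-CACUL1 were apart at 2991 (22.9%) and FLAG-CACUL1 and sh-CACUL1 at 2958 (22.6%). The order of the controls and the pair of sh-Luc and sh-CACUL1 turned with scaling, with 2488 against 2262 genes after quantile normalization, 2502 against 2206 after median-of-ratios scaling and 3804 against 3091 after rescaling each library to the same sum, where the controls had the highest count of the 6 pairs. The pairs share samples, and the counts are a description.

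**Figure D1:**
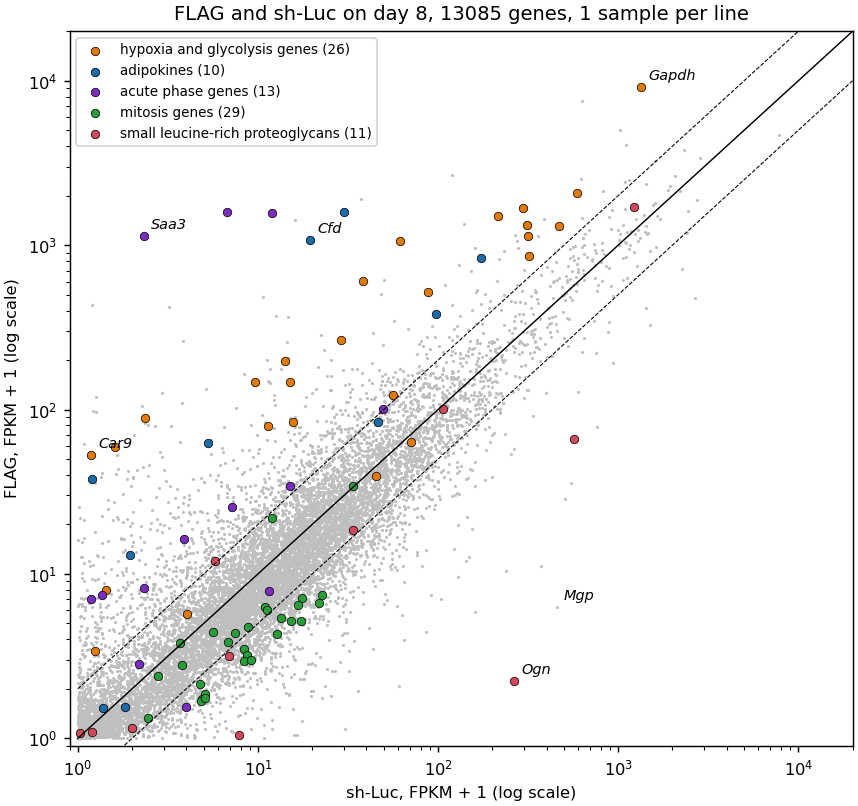
FPKM + 1 of 13085 genes in sh-Luc (horizontal, log scale) and FLAG (vertical, log scale), 1 sample per line. The solid line marks equal values and the dashed lines a 2-fold difference; colours mark 5 gene lists with the number of genes measured. Hypoxia and glycolysis genes, adipokines and acute phase genes lie mostly above the upper dashed line, and most mitosis genes lie below the diagonal at low levels.

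Among genes with at least 1 FPKM in both lines, Saa3, Lcn2 and Hp, which encode secreted proteins of the acute phase, were 3 of the 10 furthest apart on the FLAG side. Saa3, a serum amyloid A (chr7:46711998-46715700, minus strand), was at 1135 FPKM in FLAG, 1.32 in sh-Luc, 3.33 in sh-CACUL1 and 6829 in FLAG-CACUL1. Lcn2, the iron-scavenging lipocalin 2, was at 1581 FPKM in FLAG, 5.71 in sh-Luc, 42.3 in sh-CACUL1 and 1424 in FLAG-CACUL1. Hp, haptoglobin, which binds free haemoglobin, was at 1568 FPKM in FLAG, 10.9 in sh-Luc, 26.7 in sh-CACUL1 and 230.2 in FLAG-CACUL1. Their log2 differences between the controls were 8.94, 7.88 and 7.04, and in all 3 both FLAG lines were above both hairpin lines.

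Further genes among the 10 furthest apart on the FLAG side divided by the level in sh-CACUL1. Sbsn, suprabasin, was at 421 FPKM in FLAG, 2.20 in sh-Luc, 8.61 in sh-CACUL1 and 5.44 in FLAG-CACUL1. Mt2, a zinc-binding metallothionein, was at 4503 FPKM in FLAG, 42.1 in sh-Luc, 0.984 in sh-CACUL1 and 180.3 in FLAG-CACUL1. FLAG alone was high in both, and the other lines all lay far lower. Dgat2, which makes triglyceride from diglyceride, was at 261 FPKM in FLAG, 2.86 in sh-Luc, 6.24 in sh-CACUL1 and 25.1 in FLAG-CACUL1, and Rarres2, the adipokine chemerin, at 1588 FPKM in FLAG, 28.9 in sh-Luc, 376 in sh-CACUL1 and 139.6 in FLAG-CACUL1. Cfd, the adipokine adipsin, and Scd1, a fatty acid desaturase, were instead high in FLAG and sh-CACUL1 and low in the other pair, with 1070.1, 18.5, 3.78 and 1159 FPKM for Cfd and 1914, 36.3, 19.9 and 857 FPKM for Scd1 in FLAG, sh-Luc, FLAG-CACUL1 and sh-CACUL1.

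On the sh-Luc side the 3 genes furthest apart were Ogn, Mgp and Apod. Ogn, the small proteoglycan osteoglycin (chr13:49608046-49624501, plus strand), was at 1.23 FPKM in FLAG, 264 in sh-Luc, 5.77 in sh-CACUL1 and 24.8 in FLAG-CACUL1, a log2 difference of -6.89. Mgp, matrix Gla protein, an inhibitor of calcification, was at 5.26 FPKM in FLAG, 455 in sh-Luc, 108 in sh-CACUL1 and 4.50 in FLAG-CACUL1. Apod, the lipocalin apolipoprotein D, was at 10.2 FPKM in FLAG, 369 in sh-Luc, 51.7 in sh-CACUL1 and 102 in FLAG-CACUL1. In all 3 sh-Luc was the highest of the 4 lines, and FLAG was the lowest for Ogn and Apod.

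Timp2, an inhibitor of matrix metalloproteases, was at 34.7 FPKM in FLAG, 546 in sh-Luc, 55.8 in sh-CACUL1 and 544 in FLAG-CACUL1, so that sh-Luc and FLAG-CACUL1 shared the high level. Gas1, a membrane protein first found in growth-arrested fibroblasts, was at 27.5 FPKM in FLAG, 504 in sh-Luc, 66.8 in sh-CACUL1 and 164 in FLAG-CACUL1. Egr1, an immediate early transcription factor, was at 2.94 FPKM in FLAG, 63.4 in sh-Luc, 27.6 in sh-CACUL1 and 5.19 in FLAG-CACUL1. Itgbl1 had 1.09 against 59.4 FPKM in FLAG and sh-Luc, Clca3a1 3.41 against 85.2 FPKM, Sned1 4.88 against 159 FPKM and Mterf4, a mitochondrial transcription termination factor, 9.36 against 236 FPKM. The last pair lies tail to tail on chromosome 1: Sned1 (chr1:93235841-93301065, plus strand) runs into Mterf4 (chr1:93299211-93305915, minus strand). The strand setting of the counting is not given, so reads of the overlap cannot be assigned to one of them. Clca3a1 shares 35.0% of its stretches of 31 bases with Clca3a2, and its value is uncertain to that extent.

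Some genes were present in one control and close to absent in the other. Of these, 113 had at least 5 FPKM in FLAG and less than 1 in sh-Luc, and 48 the reverse. The 5 furthest apart on the FLAG side included Dlk1, the preadipocyte factor Pref-1, at 97.2 FPKM in FLAG, 0.220 in sh-Luc, 21.2 in sh-CACUL1 and 39.4 in FLAG-CACUL1, and Cbr1, a carbonyl reductase, at 118 FPKM in FLAG, 0.262 in sh-Luc, 46.2 in sh-CACUL1 and 24.4 in FLAG-CACUL1. Sema3g, a secreted semaphorin, had 95.9 against 0.261 FPKM, Stbd1, a glycogen-binding protein, 60.6 against 0.0879 FPKM and 2610528A11Rik 431 against 0.203 FPKM. On the sh-Luc side they were Aldh3a1, an aldehyde dehydrogenase, with 0.140 against 29.6 FPKM, the transcription factor gene Maf with 0.934 against 35.0 FPKM, Gdpd2 with 0.0547 against 15.5 FPKM, the matrix gene Abi3bp with 0.0458 against 14.8 FPKM and Pla2g7, a phospholipase of platelet-activating factor, with 0.800 against 24.3 FPKM. FLAG is named first in each pair. The levels of Dlk1 in the other lines, 39.4 and 21.2 FPKM, put sh-Luc apart as the only line under 1 FPKM.

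Both controls expressed the adipocyte program, FLAG at higher levels. The labels call the cells preadipocytes. All 10 adipocyte markers were measured, and 10 in FLAG and 9 in sh-Luc were at 1 FPKM or more. Their summed level was 8546 FPKM in FLAG, 1722 in sh-Luc, 17721 in sh-CACUL1 and 891 in FLAG-CACUL1. Fabp4, the fatty acid binding protein aP2, made up most of it in each line but FLAG-CACUL1, with 4991 FPKM in FLAG, 1020.1 in sh-Luc, 12543 in sh-CACUL1 and 320.4 in FLAG-CACUL1. Of 9 preadipocyte or fibroblast markers measured, 9 in FLAG and 7 in sh-Luc reached 1 FPKM, with sums of 2884 FPKM in FLAG, 1514 in sh-Luc, 314 in sh-CACUL1 and 4021 in FLAG-CACUL1. Col1a1 made up most of the sum in both controls, at 2412 FPKM in FLAG and 1095 in sh-Luc. The longer list of preadipocyte and mesenchymal markers, described below, went the other way, with sums of 1132 FPKM in FLAG and 3414 in sh-Luc. Of the latter, S100a4 held 2682 FPKM. On day 8 both control samples therefore held marker RNA of both states, with the adipocyte sum 8546 against 1722 FPKM and sh-CACUL1 above both.

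Among 20 adipogenic transcription factors, 7 were at least 2-fold higher in FLAG and 3 in sh-Luc, and the list median was 0.25 above that of all genes. The FLAG group was Nr1h3 (2.93), Cebpa (2.84), Klf15 (2.31), Pparg (2.17), Cebpb (1.27), Ebf2 (1.17) and Zfp423 (1.02). Pparg, the central regulator, was at 70.1 FPKM in FLAG, 14.8 in sh-Luc, 61.8 in sh-CACUL1 and 12.3 in FLAG-CACUL1, and Cebpa at 9.16 FPKM in FLAG, 0.421 in sh-Luc, 2.97 in sh-CACUL1 and 1.58 in FLAG-CACUL1. FLAG and sh-CACUL1 were thus the high pair for Pparg. Nr1h3, the oxysterol receptor LXRα, was at 14.5 FPKM in FLAG, 1.03 in sh-Luc, 42.2 in sh-CACUL1 and 4.04 in FLAG-CACUL1. The early factors differed less, with 274 FPKM in FLAG and 113 in sh-Luc for Cebpb and 27.0 FPKM in FLAG and 46.5 in sh-Luc for Cebpd. The 3 factors higher in sh-Luc were Klf5 (2.44 against 8.88 FPKM in FLAG and sh-Luc), Ebf1 (6.79 against 18.5 FPKM) and Gata2 (0.194 against 2.29 FPKM), a factor of the preadipocyte state.

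Adipokine genes stood far from the background, with 7 of 10 measured members at least 2-fold higher in FLAG, 0 in sh-Luc and a list median 2.70 above that of all genes. Adipoq, adiponectin, was at 837 FPKM in FLAG, 171 in sh-Luc, 1252 in sh-CACUL1 and 22.96 in FLAG-CACUL1. Retn, resistin, was at 36.9 FPKM in FLAG, 0.192 in sh-Luc, 109 in sh-CACUL1 and 1.34 in FLAG-CACUL1, and Apln, apelin, at 61.9 FPKM in FLAG, 4.25 in sh-Luc, 1.99 in sh-CACUL1 and 28.2 in FLAG-CACUL1. Adipoq and Retn peaked in sh-CACUL1 and Apln in FLAG. C1qtnf12, an adiponectin relative, had 12.01 against 0.935 FPKM in FLAG and sh-Luc.

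Lipid handling followed the same direction at most steps. Uptake and binding genes were at least 2-fold higher in FLAG for 9 of 12 (list median 1.81 above all genes), with 1143 FPKM in FLAG and 357 in sh-Luc for Lpl, the lipase that frees fatty acids from lipoproteins, and 77.6 FPKM in FLAG and 15.0 in sh-Luc for Acsl1, which activates them. The group was Vldlr (3.07), Acsl1 (2.30), Fabp4 (2.29), Fabp5 (1.70), Lpl (1.68), Slc27a4 (1.67), Acsl3 (1.59), Acsl4 (1.16) and Cd36 (1.01). The lipoprotein receptor gene Vldlr was at 28.1 FPKM in FLAG, 2.46 in sh-Luc, 0.822 in sh-CACUL1 and 8.05 in FLAG-CACUL1. Of 13 triglyceride assembly genes, 7 were at least 2-fold higher in FLAG and 0 in sh-Luc (median 1.55 above all genes). They were Dgat2 (6.08), Gpat3 (2.70), Lpin1 (2.21), Agpat2 (1.48), Gpd1 (1.47), Dgat1 (1.39) and Gpam (1.37). Dgat1, the other acyltransferase of the last step, was at 93.3 FPKM in FLAG, 35.0 in sh-Luc, 202 in sh-CACUL1 and 22.1 in FLAG-CACUL1. FLAG held the highest Dgat2 of the 4 lines and sh-CACUL1 the highest Dgat1.

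Lipid droplet coat genes counted 3 of 9 higher in FLAG, Hilpda (4.89), Plin1 (2.65) and Plin2 (1.82) (median 1.14 above all genes). Plin1, the perilipin of mature fat cells, was at 158 FPKM in FLAG, 24.3 in sh-Luc, 113 in sh-CACUL1 and 7.91 in FLAG-CACUL1. Hilpda, a droplet protein that inhibits lipolysis, was at 372 FPKM in FLAG, 11.6 in sh-Luc, 15.97 in sh-CACUL1 and 46.1 in FLAG-CACUL1, highest in FLAG by a wide margin. Cidec, which enlarges droplets, was within 2-fold between the controls at 123 FPKM in FLAG, 81.5 in sh-Luc, 1324 in sh-CACUL1 and 1.36 in FLAG-CACUL1, although it spanned the 4 lines widely. In lipolysis, 6 of 12 were higher in FLAG, G0s2 (4.70), Pde3b (2.70), Hcar1 (1.84), Lipe (1.59), Aqp7 (1.58) and Pnpla3 (1.29) (median 1.31 above all genes). G0s2, an inhibitor of adipose triglyceride lipase, was at 133 FPKM in FLAG, 4.14 in sh-Luc, 60.4 in sh-CACUL1 and 3.24 in FLAG-CACUL1, and Lipe, hormone-sensitive lipase, at 103 FPKM in FLAG, 33.6 in sh-Luc, 192 in sh-CACUL1 and 8.60 in FLAG-CACUL1. Pnpla2, adipose triglyceride lipase itself, went slightly the other way with 48.4 FPKM in FLAG and 56.5 in sh-Luc.

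Fatty acid synthesis leaned to FLAG with members on both sides. Of 17 genes, 8 were at least 2-fold higher in FLAG and 2 in sh-Luc (median 1.09 above all genes). The FLAG group was Scd1 (5.68), Acss2 (2.85), Thrsp (1.99), Fads2 (1.67), Slc25a1 (1.55), Scd2 (1.47), Fads1 (1.45) and Tkt (1.22). It held the desaturases and genes for the supply of precursors, such as Acss2, an acetyl-CoA synthetase, and Slc25a1, the citrate carrier. The chain-building enzymes were not higher in FLAG by 2-fold. Fasn, fatty acid synthase, was at 16.8 FPKM in FLAG, 36.9 in sh-Luc, 89.5 in sh-CACUL1 and 20.4 in FLAG-CACUL1, Elovl6, an elongase, at 3.36 FPKM in FLAG, 13.3 in sh-Luc, 4.36 in sh-CACUL1 and 5.02 in FLAG-CACUL1, and Acly and Acaca differed by -0.39 and -0.26. Thus the 2 members higher in sh-Luc were the synthase and the elongase of saturated chains.

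Glucose uptake and insulin response genes counted 8 of 19 higher in FLAG and 2 in sh-Luc (median 0.72 above all genes). The FLAG group included Slc2a4 (4.33), Slc2a1 (4.12), Hk2 (2.81), Pde3b (2.70), Trib3 (1.78), Hk1 (1.61) and Insr (1.45). Slc2a4, the insulin-responsive transporter GLUT4, was at 41.7 FPKM in FLAG, 1.13 in sh-Luc, 12.3 in sh-CACUL1 and 0.101 in FLAG-CACUL1, and the receptor gene Insr at 16.6 FPKM in FLAG, 5.44 in sh-Luc, 7.35 in sh-CACUL1 and 5.43 in FLAG-CACUL1. The adaptors behind the receptor ran the other way: Irs1 had 3.47 FPKM in FLAG and 11.4 in sh-Luc, and Pik3r1, the regulatory subunit of phosphoinositide 3-kinase, 16.5 FPKM in FLAG and 64.9 in sh-Luc. Of 5 thermogenic genes measured of 13, 4 were higher in FLAG, Cox7a1 (4.86), Cox8b (2.86), Ppargc1b (1.60) and Ebf2 (1.17). Cox7a1, a subunit of cytochrome c oxidase, was at 109 FPKM in FLAG, 2.80 in sh-Luc, 16.04 in sh-CACUL1 and 3.28 in FLAG-CACUL1, and Ppargc1a, a coactivator of mitochondrial genes, was higher in sh-Luc (0.995 against 4.14 FPKM, FLAG first).

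Oxidative metabolism was close to level. Of 21 fatty acid oxidation genes, 3 were higher in FLAG, including Acaa1a (1.42) and Cpt2 (1.40), and 1 in sh-Luc, Cpt1a, the gatekeeper of mitochondrial import, with 6.02 FPKM in FLAG and 21.7 in sh-Luc. Of 53 subunits of complexes I to V, 2 were higher in FLAG, Ndufb9 (1.07) and Ndufb8 (1.05), and 0 in sh-Luc, and 47 of the 53 were highest in sh-CACUL1. The citric acid cycle and pyruvate entry list counted 3 of 27 higher in FLAG, Pdk1 (2.50), Pcx (1.35) and Idh3g (1.13). Pdk1, the kinase that closes pyruvate entry and is another hypoxia target, was thus its furthest member. Branched-chain amino acid breakdown counted 3 of 20 higher in FLAG, Bckdhb (1.86), Ivd (1.55) and Dbt (1.31), and cholesterol synthesis 2 of 22, including Sqle (1.14), with 1, Idi1 (-1.08), in sh-Luc.

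**Figure D2:**
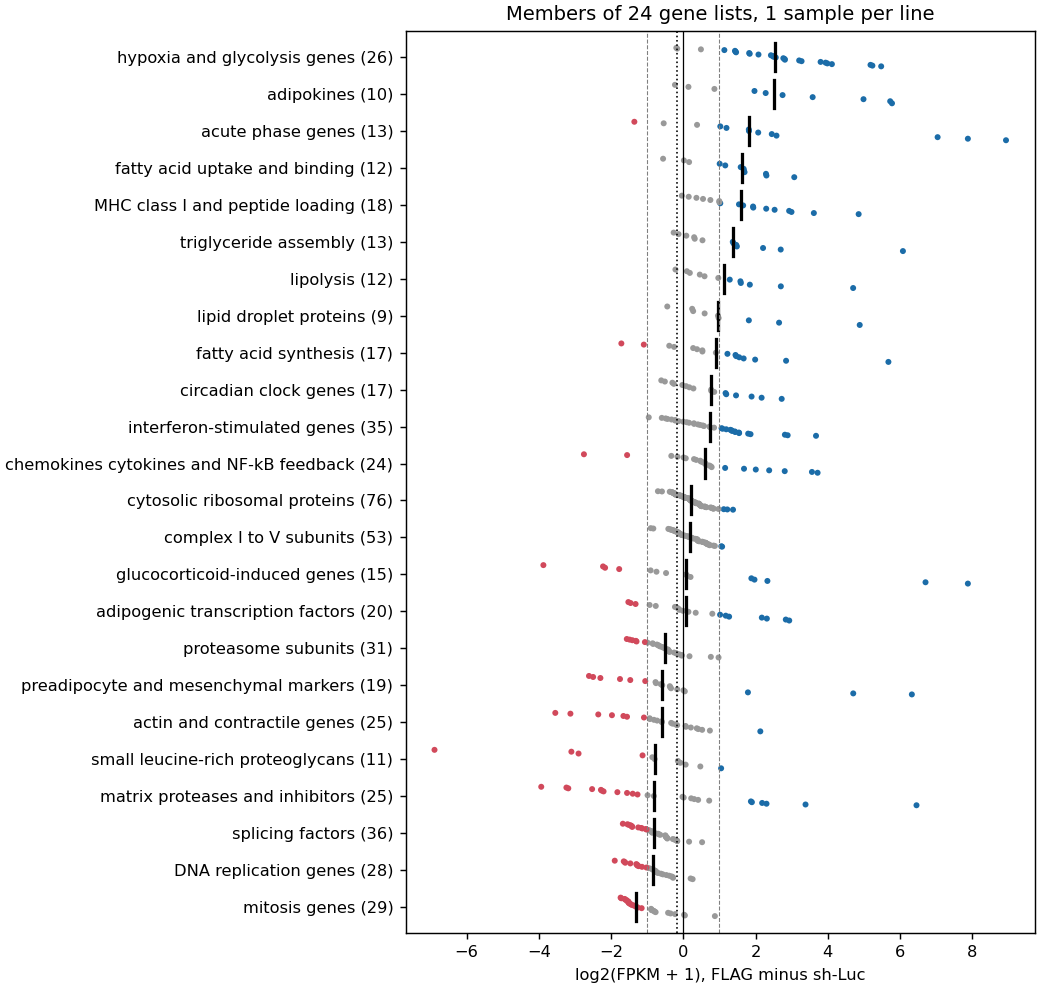
Differences on the log2(FPKM + 1) scale (FLAG minus sh-Luc) of the measured members of 24 gene lists, with their number in parentheses and 1 sample per line. Points are genes, blue at least 2-fold higher in FLAG, red at least 2-fold higher in sh-Luc and grey between; black bars are list medians and the dotted line is the median of all genes, -0.18. Hypoxia and glycolysis genes stand at the top and mitosis genes at the bottom.

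Among the lists with 10 or more measured members, hypoxia and glycolysis had the largest share apart. Glycolysis turns glucose into pyruvate and lactate, and in low oxygen the transcription factor HIF-1 raises its enzymes, the glucose transporter GLUT1 and a group of sensors and regulators. Of 26 members measured, 23 were at least 2-fold higher in FLAG, against 8.58% of all genes, and 0 in sh-Luc, with a list median 2.71 above that of all genes. FLAG held the highest level of the 4 lines for 24 of the 26. The median level was 171 FPKM in FLAG, 40.7 in sh-Luc, 27.9 in sh-CACUL1 and 59.9 in FLAG-CACUL1. The count stayed between 19 and 23 under the alternatives run, the lowest with only members of at least 1 FPKM in both controls.

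Promoters are shown for the 4 members furthest apart among those matched to a promoter, for the letters ACGTG or GCGTG, the core of the element that HIF binds. They run from 250 bases before to 50 bases after the start site, are taken from RefSeq on GRCm38.p6, and are written 5′ to 3′ on the strand of the gene with cores of either strand in capitals. Car9 lies at chr4:43506776-43507075, plus strand, Ankrd37 at chr8:45999801-46000100, minus strand, Slc2a1 at chr4:119108495-119108794, plus strand and Bnip3 at chr7:138909457-138909756, minus strand.
Car9: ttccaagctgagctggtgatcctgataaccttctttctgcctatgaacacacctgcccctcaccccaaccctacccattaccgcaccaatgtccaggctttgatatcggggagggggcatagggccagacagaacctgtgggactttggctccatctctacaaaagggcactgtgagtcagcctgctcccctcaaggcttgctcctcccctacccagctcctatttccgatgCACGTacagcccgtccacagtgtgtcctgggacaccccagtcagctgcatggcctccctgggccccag
Ankrd37: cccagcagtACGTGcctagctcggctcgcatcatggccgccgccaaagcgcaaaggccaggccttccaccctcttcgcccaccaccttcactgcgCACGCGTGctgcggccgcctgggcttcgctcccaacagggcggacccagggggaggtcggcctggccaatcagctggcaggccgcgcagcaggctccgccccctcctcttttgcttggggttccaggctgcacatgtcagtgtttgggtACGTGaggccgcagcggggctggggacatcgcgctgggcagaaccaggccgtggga
Slc2a1: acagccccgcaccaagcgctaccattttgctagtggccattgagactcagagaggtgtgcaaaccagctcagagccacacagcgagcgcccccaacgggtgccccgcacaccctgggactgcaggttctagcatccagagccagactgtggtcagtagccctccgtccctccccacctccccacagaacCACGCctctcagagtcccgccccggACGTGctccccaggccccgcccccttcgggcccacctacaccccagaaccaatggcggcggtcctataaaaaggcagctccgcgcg
Bnip3: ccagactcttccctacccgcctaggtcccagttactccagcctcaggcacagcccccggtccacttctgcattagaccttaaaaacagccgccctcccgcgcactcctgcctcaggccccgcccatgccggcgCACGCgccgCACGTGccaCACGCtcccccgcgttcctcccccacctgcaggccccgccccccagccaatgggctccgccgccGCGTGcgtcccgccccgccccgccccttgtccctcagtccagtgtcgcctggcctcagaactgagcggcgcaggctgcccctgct
The core stood once in the Car9 promoter, 18 bases before the start site, and 2 times in Slc2a1, 4 times in Ankrd37 and 5 times in Bnip3. Some form of it was in 23 of 25 promoters of the list (92.0%), in 20 of 25 of the mitosis list used for contrast (80.0%), in 66.7% of measured genes with a promoter and in 43.8% of all 32851 promoters. This motif was chosen after the values were seen, and it overlaps the E-box CACGTG, which holds the core on both strands. A match is a description of the letters and not a site.

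Sensor and regulator genes were among the furthest apart. Car9, a carbonic anhydrase of the cell surface, was at 51.6 FPKM in FLAG, 0.178 in sh-Luc, 0.924 in sh-CACUL1 and 0.0375 in FLAG-CACUL1, so that FLAG was the only line above 1 FPKM. Ankrd37 was at 87.8 FPKM in FLAG, 1.35 in sh-Luc, 2.59 in sh-CACUL1 and 13.3 in FLAG-CACUL1, and Ndrg1 at 57.8 FPKM in FLAG, 0.617 in sh-Luc, 0.327 in sh-CACUL1 and 6.40 in FLAG-CACUL1. Bnip3, a mitophagy receptor, was at 608 FPKM in FLAG, 37.3 in sh-Luc, 57.1 in sh-CACUL1 and 148 in FLAG-CACUL1, with a log2 difference of 3.99 between the controls. FLAG was the highest line in each, and FLAG-CACUL1 came next for all but Car9.

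Egln1 and Egln3 encode oxygen-sensing prolyl hydroxylases that mark HIF for breakdown and are themselves HIF targets. Egln3 was at 146 FPKM in FLAG, 8.60 in sh-Luc, 7.57 in sh-CACUL1 and 30.8 in FLAG-CACUL1, and Egln1 at 146 FPKM in FLAG, 14.1 in sh-Luc, 9.92 in sh-CACUL1 and 43.3 in FLAG-CACUL1. Vegfa, the vascular growth factor, was at 266 FPKM in FLAG, 27.8 in sh-Luc, 117 in sh-CACUL1 and 51.5 in FLAG-CACUL1. Hif1a, which encodes the oxygen-regulated subunit itself and is controlled mainly at the protein level, showed no such difference, with 62.1 FPKM in FLAG, 70.0 in sh-Luc, 23.01 in sh-CACUL1 and 106 in FLAG-CACUL1.

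The glycolytic chain was higher in FLAG at most steps. Slc2a1, the transporter GLUT1, was at 1063 FPKM in FLAG, 60.4 in sh-Luc, 14.5 in sh-CACUL1 and 68.2 in FLAG-CACUL1, and Hk2, the first kinase, at 78.6 FPKM in FLAG, 10.4 in sh-Luc, 12.7 in sh-CACUL1 and 19.9 in FLAG-CACUL1. Gapdh was the gene with the highest FPKM in FLAG at 9160.3 FPKM in FLAG, 1342 in sh-Luc, 1418 in sh-CACUL1 and 1851 in FLAG-CACUL1, a log2 difference of 2.77. Between the ends of the chain, the enzyme genes Gpi1 (2.56), Pfkp (2.43), Aldoa (1.82), Tpi1 (1.43), Pgk1 (2.81), Pgam1 (2.08), Eno1 (1.84) and Pkm (1.46) were higher by the log2 differences given. Ldha, which makes lactate, had 1680.0 FPKM in FLAG and 297 in sh-Luc, and Slc16a3, a lactate exporter, 2.41 FPKM in FLAG and 0.252 in sh-Luc. The muscle-type phosphofructokinase gene Pfkm and the regulator gene Pfkfb4 stayed within 2-fold, with 38.4 against 44.1 FPKM and 4.67 against 3.04 FPKM, FLAG first. The study used GAPDH as the internal standard of its RT-qPCR and gave expression relative to controls. A comparison of each line with its own control does not involve the difference between FLAG and sh-Luc. Within the hairpin pair Gapdh was close to level, with sh-CACUL1 at 1418 FPKM against 1342 for its control. Within the FLAG pair it was further apart, with FLAG-CACUL1 at 1851 FPKM against 9160.3 for its control. The bearing of this on the RT-qPCR was not tested. Gapdh shares 27.2% and Pgk1 54.7% of their stretches of 31 bases with other genes or pseudogenes, and Pgam1 shares 37.1%, Pkm 34.7% and Eno1 28.5%, which makes the FPKM of these 5 uncertain.

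**Figure D3:**
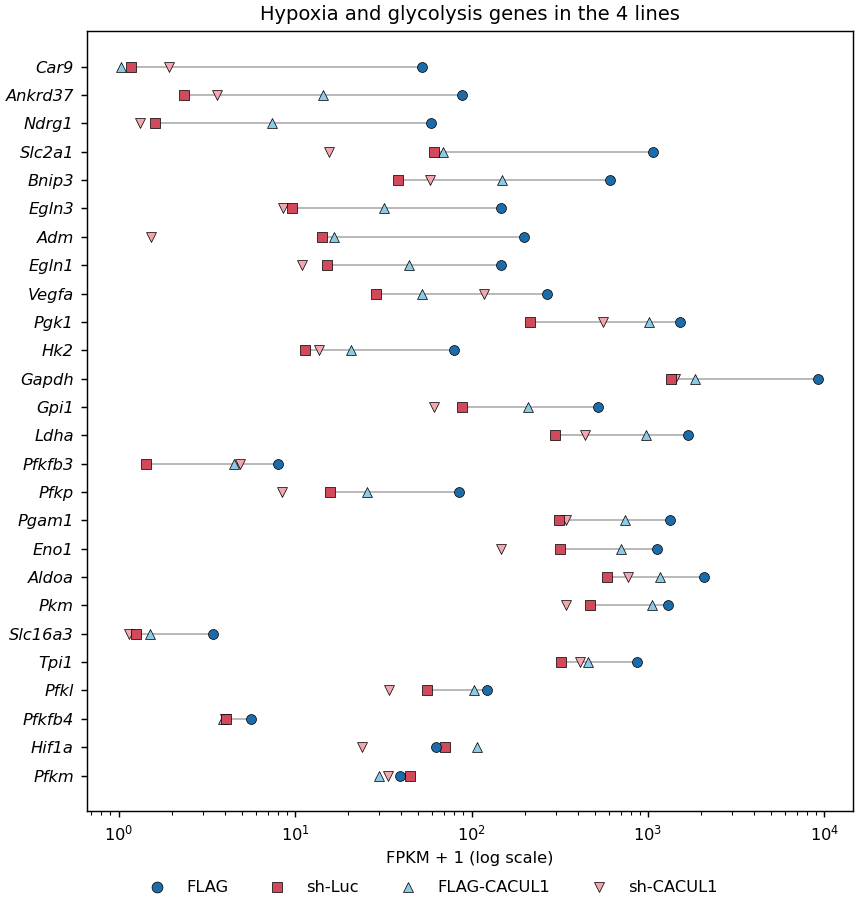
FPKM + 1 (log scale) of 26 hypoxia and glycolysis genes in the 4 lines, 1 sample each, ordered by the difference between FLAG (circles) and sh-Luc (squares), which grey lines join. FLAG lies to the right of every other line in 24 of the 26, and Hif1a and Pfkm at the bottom show the controls close together.

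Genes outside this list were read next, among the 10 highest of FLAG and in the lists of collagen modifying enzymes and clock genes. Ero1l, which oxidizes protein disulfide isomerase, and Bsg, the chaperone of lactate transporters, were among the 10 highest genes of FLAG, at 2673 FPKM in FLAG, 119 in sh-Luc, 52.3 in sh-CACUL1 and 339 in FLAG-CACUL1 and at 7524 FPKM in FLAG, 625 in sh-Luc, 425 in sh-CACUL1 and 1080.3 in FLAG-CACUL1. Of the collagen modifying enzymes, 6 of 20 were higher in FLAG, Plod2 (4.17), P4ha2 (2.61), Loxl2 (2.31), P4hb (2.04), P4ha1 (1.27) and Plod1 (1.25), and 6 in sh-Luc, P4ha3 (-3.08), Adamts2 (-2.92), Pcolce2 (-2.37), Loxl1 (-1.79), Loxl3 (-1.29) and Bmp1 (-1.22). The hydroxylases of collagen Plod2 and P4ha2 were on the FLAG side with 199 FPKM in FLAG, 10.2 in sh-Luc, 8.42 in sh-CACUL1 and 80.1 in FLAG-CACUL1 and 346 FPKM in FLAG, 56.0 in sh-Luc, 18.5 in sh-CACUL1 and 167 in FLAG-CACUL1. P4ha3, the third alpha subunit of the prolyl hydroxylase, and Adamts2, which trims procollagen, were on the other with 0.545 FPKM in FLAG and 12.02 in sh-Luc and 5.59 FPKM in FLAG and 48.8 in sh-Luc. Of 17 clock genes, 6 were higher in FLAG, Bhlhe40 (2.72), Bhlhe41 (2.17), Ciart (1.89), Nr1d1 (1.46), Dbp (1.19) and Nfil3 (1.17), most of them repressors or output genes of the loop, whereas the activator genes Arntl and Clock differed by -0.30 and -0.61.

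Acute phase and antigen presentation genes were higher in FLAG too. Acute phase proteins are made on IL-6, IL-1 and C/EBP signals in liver and fat. Of 13 measured, 10 were at least 2-fold higher in FLAG and 1 in sh-Luc (median 2.00 above all genes). The FLAG group was Saa3 (8.94), Lcn2 (7.88), Hp (7.04), Serpina3g (2.58), Hpx (2.45), Serpina3n (2.07), Orm1 (1.82), Steap4 (1.81), Osmr (1.20) and Cp (1.02). Beyond Saa3, Lcn2 and Hp the differences were smaller, with 15.3 FPKM in FLAG, 2.87 in sh-Luc, 14.5 in sh-CACUL1 and 51.2 in FLAG-CACUL1 for the protease inhibitor gene Serpina3n and 6.46 FPKM in FLAG, 0.365 in sh-Luc, 0.582 in sh-CACUL1 and 3.09 in FLAG-CACUL1 for the haem carrier gene Hpx. The orosomucoid genes split, with Orm1 at 24.4 FPKM in FLAG, 6.21 in sh-Luc, 57.9 in sh-CACUL1 and 4.57 in FLAG-CACUL1 and Orm2 at 0.560 FPKM in FLAG, 2.99 in sh-Luc, 24.2 in sh-CACUL1 and 1.92 in FLAG-CACUL1. They share 27.5% of their stretches of 31 bases, and both peaked in sh-CACUL1.

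MHC class I molecules show peptides, cut by the immunoproteasome and carried by the TAP transporter, to cytotoxic T cells. Of 18 genes of this path, 11 were at least 2-fold higher in FLAG and 0 in sh-Luc (median 1.78 above all genes). They were Psmb8 (4.86), H2-K1 (3.62), H2-T23 (3.00), Psmb9 (2.93), Tap1 (2.53), H2-Q4 (2.30), H2-D1 (1.94), Tap2 (1.93), H2-Q7 (1.66), H2-M3 (1.54) and B2m (1.02). Psmb8, an immunoproteasome subunit, was at 37.8 FPKM in FLAG, 0.341 in sh-Luc, 0.302 in sh-CACUL1 and 21.1 in FLAG-CACUL1, and Psmb9, another, at 28.6 FPKM in FLAG, 2.87 in sh-Luc, 0.998 in sh-CACUL1 and 7.72 in FLAG-CACUL1. Tap1, a subunit of the transporter, was at 63.9 FPKM in FLAG, 10.3 in sh-Luc, 3.85 in sh-CACUL1 and 34.6 in FLAG-CACUL1, and the heavy chain gene H2-K1 at 611 FPKM in FLAG, 48.9 in sh-Luc, 45.6 in sh-CACUL1 and 344 in FLAG-CACUL1. For these 4, FLAG was highest, FLAG-CACUL1 second and both hairpin lines low. B2m, the shared light chain, was at 3255 FPKM in FLAG, 1601 in sh-Luc, 418 in sh-CACUL1 and 6284 in FLAG-CACUL1. The heavy chain genes overlap in sequence (H2-Q4 shares 38.4% and H2-K1 22.8% of 31-base stretches with other genes), so reads could move between them.

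Interferon-stimulated genes differed less. Of 35, 15 were at least 2-fold higher in FLAG and 0 in sh-Luc (median 0.91 above all genes), and 29 were highest in FLAG-CACUL1. Ifi27l2a was at 146 FPKM in FLAG, 10.5 in sh-Luc, 56.5 in sh-CACUL1 and 182 in FLAG-CACUL1, Zbp1, a sensor of Z-form nucleic acid, at 17.7 FPKM in FLAG, 1.52 in sh-Luc, 0.0700 in sh-CACUL1 and 22.97 in FLAG-CACUL1, and Ifi44 at 26.03 FPKM in FLAG, 2.84 in sh-Luc, 0.0232 in sh-CACUL1 and 19.7 in FLAG-CACUL1. Other antiviral genes were closer, with log2 differences of 1.19 for Isg15, 0.73 for Ifit1, 0.40 for Ifit2 and 1.54 for Ifit3. The spread over the lines was wider than between the controls, since the list median was 16.7 FPKM in FLAG, 9.51 in sh-Luc, 0.621 in sh-CACUL1 and 22.97 in FLAG-CACUL1.

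Complement genes counted 5 of 12 higher in FLAG, C4b (4.49), Cfb (4.04), C3 (2.10), C1s1 (1.45) and C4a (1.36), and 2 in sh-Luc. C3, the central component, was at 1143 FPKM in FLAG, 267 in sh-Luc, 373 in sh-CACUL1 and 1614 in FLAG-CACUL1, C4b at 41.5 FPKM in FLAG, 0.892 in sh-Luc, 2.47 in sh-CACUL1 and 15.6 in FLAG-CACUL1 and Cfb, factor B, at 21.4 FPKM in FLAG, 0.356 in sh-Luc, 0.371 in sh-CACUL1 and 8.50 in FLAG-CACUL1. The sh-Luc side included the lectin-pathway protease gene Masp1, with 1.59 FPKM in FLAG and 5.61 in sh-Luc. Of 24 chemokine, cytokine and NF-κB genes, 7 were higher in FLAG, Cxcl1 (3.72), Cx3cl1 (3.56), Ccl5 (2.81), Cxcl10 (2.38), Lif (2.01), Tnfaip3 (1.68) and Nfkbiz (1.16), and 2 in sh-Luc, Tnfaip6 (-2.75) and Il1rl1 (-1.56). Cxcl1, a neutrophil chemokine, was at 176 FPKM in FLAG, 12.4 in sh-Luc, 1.71 in sh-CACUL1 and 317 in FLAG-CACUL1, and Cx3cl1, fractalkine, at 35.6 FPKM in FLAG, 2.10 in sh-Luc, 2.74 in sh-CACUL1 and 1.37 in FLAG-CACUL1. Tnfaip6, a hyaluronan-binding protein, was the member furthest to the sh-Luc side with 1.81 FPKM in FLAG and 18.0 in sh-Luc.

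Markers of leukocytes were read beside these genes. Of 7 defining macrophage or leukocyte markers, 3 were measured (Cd68, Csf1r and Lyz2). No row matched the symbols Ptprc, Adgre1, Itgam and Tyrobp. The sum of the 3 measured markers was 24.9 FPKM in FLAG, 6.11 in sh-Luc, 2.91 in sh-CACUL1 and 68.3 in FLAG-CACUL1. Over the longer list, 7 of 16 were measured and 3 were at least 2-fold higher in FLAG, namely Cd68 (16.2 FPKM in FLAG and 0.962 in sh-Luc), Cd14 (15.0 FPKM in FLAG and 3.02 in sh-Luc) and Lyz1 (4.55 FPKM in FLAG and 0.328 in sh-Luc). Csf1r, the receptor that defines the lineage, was at 0.607 FPKM in FLAG, 0.119 in sh-Luc, 0.0172 in sh-CACUL1 and 0.397 in FLAG-CACUL1. The part of such cells in the immune gene lists was not tested. The defining endothelial, skeletal muscle and epithelial markers stayed at 2.64 FPKM or less in both controls, with 1, 2 and 1 of them measured. No row matched the symbols of the 6 defining bone or cartilage markers. Of a longer skeletal muscle list, 5 of 16 were measured and 0 were 2-fold apart on the log2(FPKM + 1) scale, with Tnnc1, a troponin, the highest at 4.96 FPKM in FLAG and 2.01 in sh-Luc. Of a longer bone and cartilage list, 7 of 16 were measured. Spp1, osteopontin, had 148 FPKM in FLAG and 51.2 in sh-Luc, Alpl, an alkaline phosphatase, 11.6 FPKM in FLAG and 0.373 in sh-Luc, and Runx2, a bone transcription factor, 2.74 FPKM in FLAG and 9.28 in sh-Luc, and these were its members at least 2-fold apart.

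**Figure D4:**
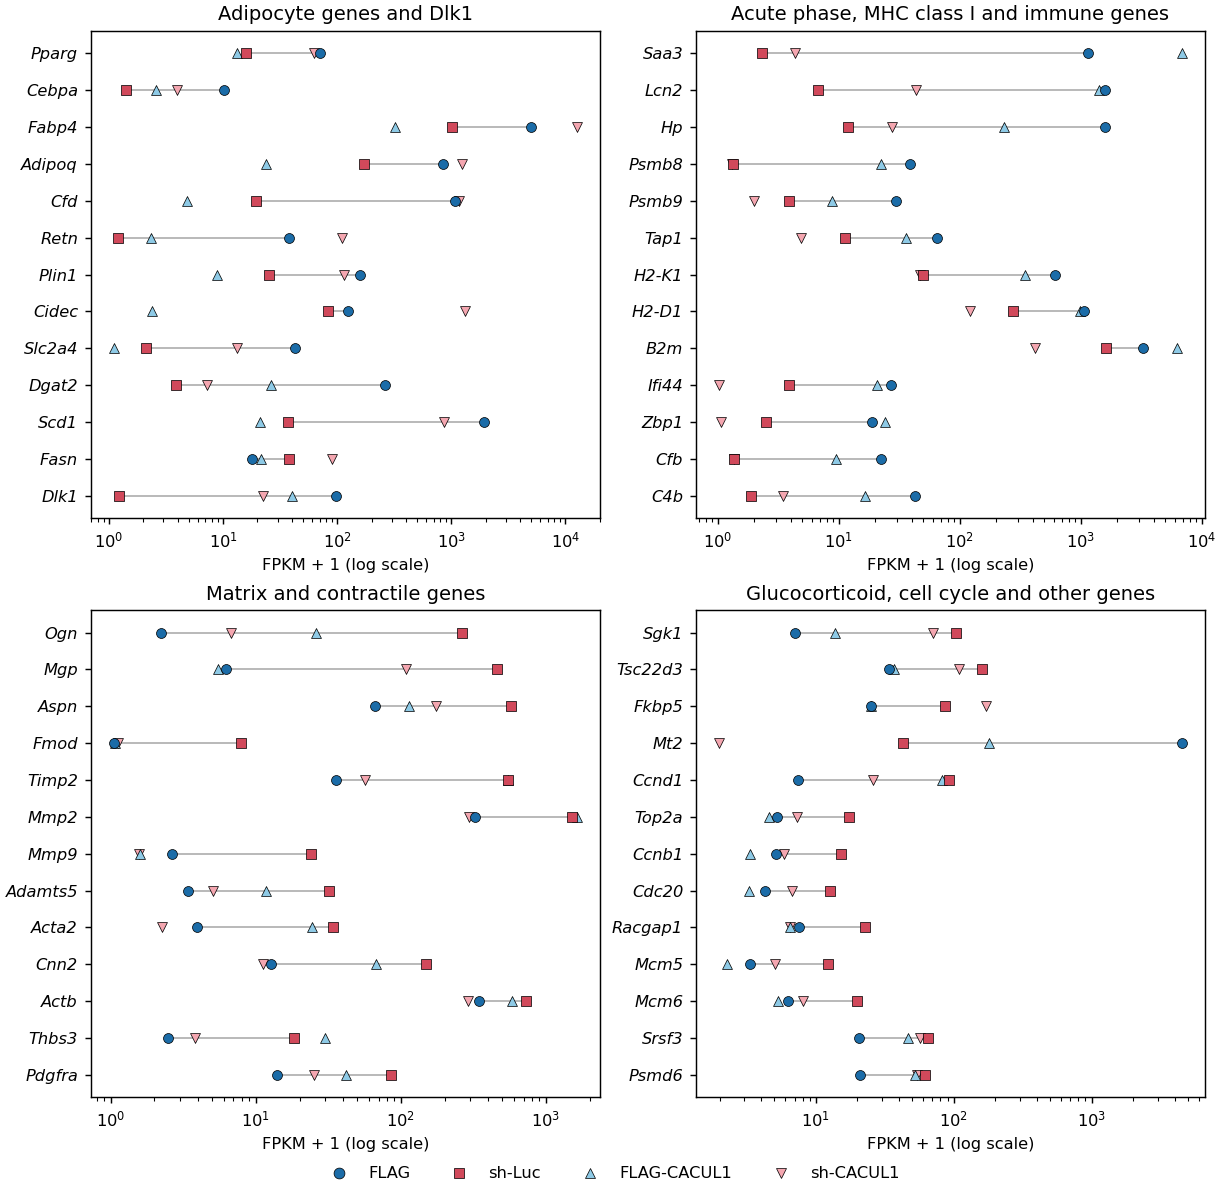
FPKM + 1 (log scale) of genes of 4 programs in FLAG (circles), sh-Luc (squares), FLAG-CACUL1 (upward triangles) and sh-CACUL1 (downward triangles), 1 sample each, with grey lines between the controls. Of the controls, FLAG lies to the right for acute phase and MHC class I genes and sh-Luc for matrix, contractile and cell cycle genes, and the glucocorticoid targets Sgk1, Tsc22d3 and Fkbp5 are high in both hairpin lines.

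Glucocorticoid-induced genes split into groups. Dexamethasone was part of the mixture that started adipogenesis, and the medium used afterwards is described with insulin only. The part of the drug in the levels of day 8 was not tested. Of 15 measured, 5 were at least 2-fold higher in FLAG and 4 in sh-Luc. The sh-Luc side held Sgk1, a kinase of ion transport, at 6.06 FPKM in FLAG, 103 in sh-Luc, 69.8 in sh-CACUL1 and 12.8 in FLAG-CACUL1, Tsc22d3, the anti-inflammatory protein GILZ, at 33.1 FPKM in FLAG, 158 in sh-Luc, 108 in sh-CACUL1 and 35.8 in FLAG-CACUL1, and Fkbp5, a cochaperone of the receptor, at 24.2 FPKM in FLAG, 85.2 in sh-Luc, 169 in sh-CACUL1 and 24.2 in FLAG-CACUL1. Errfi1, an inhibitor of the EGF receptor, was at 11.3 FPKM in FLAG, 54.3 in sh-Luc, 55.0 in sh-CACUL1 and 8.61 in FLAG-CACUL1. For all 4 both hairpin lines were high and both FLAG lines low. Per1, also on the list, was level between the controls, with 23.4 FPKM in FLAG, 22.1 in sh-Luc, 13.8 in sh-CACUL1 and 4.94 in FLAG-CACUL1.

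The FLAG side of the list held Mt2, Lcn2, Ddit4, Angptl4 and Mt1, genes that other signals induce as well. Mt1, which lies next to Mt2 on chromosome 8 (chr8:94172664-94173568, plus strand, and chr8:94179082-94180327, plus strand), was at 4075 FPKM in FLAG, 1102 in sh-Luc, 621 in sh-CACUL1 and 851 in FLAG-CACUL1. The adjacent pair thus differed by 6.71 and 1.89. Ddit4, an inhibitor of mTORC1 that hypoxia also induces, was at 247 FPKM in FLAG, 48.3 in sh-Luc, 49.8 in sh-CACUL1 and 90.3 in FLAG-CACUL1.

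Families of matrix genes differed in their direction. Small leucine-rich proteoglycans bind collagen fibrils and set their spacing. Of 11 measured, 4 were at least 2-fold higher in sh-Luc, against 12.4% of all genes, and 1, Lum, in FLAG (median -0.61 from all genes). Beside Ogn, Aspn, asporin, was at 65.5 FPKM in FLAG, 569.6 in sh-Luc, 174 in sh-CACUL1 and 112 in FLAG-CACUL1, Fmod, fibromodulin, at 0.0493 FPKM in FLAG, 6.85 in sh-Luc, 0.118 in sh-CACUL1 and 0.0747 in FLAG-CACUL1 and Omd, osteomodulin, at 2.17 FPKM in FLAG, 5.94 in sh-Luc, 11.2 in sh-CACUL1 and 6.70 in FLAG-CACUL1. Ogn, Omd and Aspn are neighbours on chromosome 13 and overlap Cenpp on the other strand. Decorin and biglycan were among the members within 2-fold, with 99.7 FPKM in FLAG, 106 in sh-Luc, 9.60 in sh-CACUL1 and 770.0 in FLAG-CACUL1 for Dcn and 1703 FPKM in FLAG, 1228 in sh-Luc, 822 in sh-CACUL1 and 4156 in FLAG-CACUL1 for Bgn.

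Proteases of the matrix and their inhibitors counted 11 of 25 higher in sh-Luc and 6 in FLAG (median -0.63 from all genes). The sh-Luc group was Timp2 (-3.94), Adamts5 (-3.24), Mmp9 (-3.19), Adamts12 (-2.53), Mmp14 (-2.28), Adamts1 (-2.26), Mmp2 (-2.21), Mmp19 (-1.83), Timp4 (-1.56), Plat (-1.40) and Mmp23 (-1.27), and the FLAG group included Mmp11 (3.39), Serpine2 (2.30), Mmp3 (2.18), Mmp13 (1.90) and Timp1 (1.87). Mmp2, a gelatinase, was at 324 FPKM in FLAG, 1504 in sh-Luc, 293 in sh-CACUL1 and 1624 in FLAG-CACUL1, and Mmp9, the other, at 1.65 FPKM in FLAG, 23.1 in sh-Luc, 0.572 in sh-CACUL1 and 0.579 in FLAG-CACUL1. Adamts5, an aggrecanase, was at 2.39 FPKM in FLAG, 30.96 in sh-Luc, 4.07 in sh-CACUL1 and 10.7 in FLAG-CACUL1. The FLAG side had Mmp11 at 501 FPKM in FLAG, 47.1 in sh-Luc, 6.71 in sh-CACUL1 and 147 in FLAG-CACUL1, Mmp3 at 104 FPKM in FLAG, 22.1 in sh-Luc, 1.68 in sh-CACUL1 and 487 in FLAG-CACUL1 and Timp1 at 149.8 FPKM in FLAG, 40.2 in sh-Luc, 10.4 in sh-CACUL1 and 180.3 in FLAG-CACUL1. The metalloprotease inhibitors thus opposed each other, with Timp2 -3.94 and Timp1 1.87 on the log2 scale.

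Of 21 collagen chains, 6 were at least 2-fold higher in FLAG, Col12a1 (3.42), Col18a1 (3.22), Col5a3 (1.69), Col1a1 (1.14), Col16a1 (1.04) and Col6a3 (1.03), against 8.58% of all genes, and 2 in sh-Luc (median 0.53 above all genes). Col1a1 was at 2412 FPKM in FLAG, 1095 in sh-Luc, 156 in sh-CACUL1 and 2424 in FLAG-CACUL1 and its partner chain Col1a2 at 1524 FPKM in FLAG, 1396 in sh-Luc, 301 in sh-CACUL1 and 3397 in FLAG-CACUL1. Col12a1, a fibril-associated chain, was at 14.8 FPKM in FLAG, 0.478 in sh-Luc, 0.110 in sh-CACUL1 and 0.624 in FLAG-CACUL1, and Col18a1, a basement membrane chain, at 113 FPKM in FLAG, 11.2 in sh-Luc, 7.89 in sh-CACUL1 and 80.7 in FLAG-CACUL1. Col8a1 and Col11a1 lay on the sh-Luc side with 0.147 FPKM in FLAG and 11.01 in sh-Luc and 6.57 FPKM in FLAG and 49.5 in sh-Luc. Among 23 matricellular and elastic fibre genes, 6 were higher in sh-Luc, Thbs3 (-2.87), Mfap5 (-2.57), Thbs1 (-2.48), Thbs2 (-2.05), Postn (-1.77) and Mfap4 (-1.54), and 3 in FLAG, Fbln2 (1.78), Ccn5 (1.60) and Spp1 (1.51) (median -0.20 from all genes, and 0.22 over members with at least 1 FPKM in both controls), so that the 3 thrombospondins lay on the same side. The list of integrins, laminins and nidogens also holds Itgbl1, an integrin-like gene that does not encode an integrin subunit. Of its 20 genes, 6 were higher in sh-Luc, Itgbl1 (-4.85), Lamb2 (-1.70), Itga3 (-1.27), Itgb1 (-1.19), Itga1 (-1.04) and Lama4 (-1.01), and 6 in FLAG, Itga11 (2.42), Itga7 (2.35), Itga6 (2.20), Lama2 (2.13), Nid2 (1.81) and Nid1 (1.39), where both nidogens of the basement membrane were found.

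Actin and contractile genes counted 7 of 25 higher in sh-Luc and 1, Des (2.13), in FLAG (median -0.41 from all genes). The sh-Luc group was Cnn2 (-3.55), Acta2 (-3.13), Cnn3 (-2.36), Mylk (-1.98), Actn1 (-1.66), Csrp2 (-1.56) and Actb (-1.09). Acta2, smooth muscle actin, was at 2.90 FPKM in FLAG, 33.1 in sh-Luc, 1.27 in sh-CACUL1 and 23.5 in FLAG-CACUL1, and Cnn2, a calponin, at 11.6 FPKM in FLAG, 147 in sh-Luc, 10.1 in sh-CACUL1 and 66.6 in FLAG-CACUL1. Tagln, another contractile marker, was under 1 FPKM in both controls (0.282 against 0.620 FPKM).

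Preadipocyte and mesenchymal markers were not all on one side. Of 19, 6 were at least 2-fold higher in sh-Luc, Pdgfra (-2.61), S100a4 (-2.50), Snai2 (-2.30), Sox9 (-1.75), Pi16 (-1.47) and Twist1 (-1.05), and 3 in FLAG (median -0.40 from all genes). Pdgfra, the receptor of adipose progenitors, was at 13.0 FPKM in FLAG, 84.9 in sh-Luc, 24.2 in sh-CACUL1 and 40.9 in FLAG-CACUL1, and Snai2, an inducer of mesenchymal state, at 3.90 FPKM in FLAG, 23.1 in sh-Luc, 5.06 in sh-CACUL1 and 16.1 in FLAG-CACUL1. S100a4, a fibroblast marker, was among the 10 highest genes of sh-Luc at 474 FPKM in FLAG, 2682 in sh-Luc, 564 in sh-CACUL1 and 1761 in FLAG-CACUL1, although 49.2% of its 31-base stretches also occur in 1 other gene. Dlk1, Thy1 and Ly6a went the other way. Thy1, a surface marker of mesenchymal cells, was at 42.4 FPKM in FLAG, 0.663 in sh-Luc, 34.3 in sh-CACUL1 and 144 in FLAG-CACUL1, and Ly6a, which encodes Sca-1, at 97.9 FPKM in FLAG, 27.6 in sh-Luc, 24.2 in sh-CACUL1 and 347 in FLAG-CACUL1. For Thy1 sh-Luc was the only line under 1 FPKM, as for Dlk1.

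In the IGF axis, Igfbp4, a binding protein, was at 480.0 FPKM in FLAG, 9.72 in sh-Luc, 19.1 in sh-CACUL1 and 181 in FLAG-CACUL1, while Igf2r, the receptor that clears IGF2, had 36.8 FPKM in FLAG and 115 in sh-Luc. The list counted 2 of 12 higher in FLAG, Igfbp4 (5.49) and Igfbp5 (1.82), and 3 in sh-Luc, Igf2r (-1.62), Igf2bp3 (-1.40) and Igf1 (-1.17). TGF-β genes counted 8 of 20 in FLAG, Smad7 (2.61), Tgfbi (2.35), Ltbp2 (1.51), Tgfb1 (1.46), Inhba (1.40), Ltbp3 (1.28), Tgfbr1 (1.23) and Skil (1.06), and 3 in sh-Luc, Tgfb1i1 (-1.11), Ltbp1 (-1.10) and Tgfb3 (-1.09). Their ligands differed in direction, with 58.7 FPKM in FLAG and 20.7 in sh-Luc for Tgfb1 and 7.22 FPKM in FLAG and 16.5 in sh-Luc for Tgfb3, and the inhibitor gene Smad7 was at 17.0 FPKM in FLAG, 1.95 in sh-Luc, 0.373 in sh-CACUL1 and 3.22 in FLAG-CACUL1.

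BMP and Wnt genes were split between the controls. Of 15 BMP and ID genes, 4 were higher in sh-Luc, Fst (-3.15), Id2 (-2.22), Id4 (-1.94) and Id1 (-1.16), and 3 in FLAG, including Nbl1 (1.69) and Smad6 (1.62). Fst encodes follistatin, which binds activins, and the ID proteins block basic helix-loop-helix factors. Of 16 Wnt genes, 4 were higher in sh-Luc, Fzd1 (-2.41), Fzd2 (-1.58), Lef1 (-1.05) and Wnt5a (-1.04), and 1, Fzd8 (1.16), in FLAG, so that receptors of the frizzled family lay on both sides.

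Cell cycle genes were low in both controls and mostly higher in sh-Luc. Confluent 3T3-L1 cells divide a few times after induction and then leave the cycle, so few cells divide in late differentiation. Of 29 mitosis genes, 17 were at least 2-fold higher in sh-Luc, against 12.4% of all genes, and 0 in FLAG (median -1.12 from all genes). Of 28 DNA replication genes, 11 were higher in sh-Luc and 0 in FLAG (median -0.64). The median levels were 3.30 FPKM in FLAG, 7.66 in sh-Luc, 2.91 in sh-CACUL1 and 1.74 in FLAG-CACUL1 for mitosis, and 4.99 FPKM in FLAG, 11.1 in sh-Luc, 5.23 in sh-CACUL1 and 3.70 in FLAG-CACUL1 for replication. sh-Luc held the highest level of the 4 lines for 26 members in each list. Under median-of-ratios scaling 16 mitosis and 8 replication genes stayed at least 2-fold higher in sh-Luc.

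Promoters of 3 of the 6 mitosis genes furthest apart are shown for their CCAAT boxes, the binding letters of NF-Y, which mitotic promoters often carry in pairs. They have the same span and source as those above, with CCAAT or its reverse complement ATTGG in capitals. Top2a lies at chr11:99024140-99024439, minus strand, Ccnb1 at chr13:100786437-100786736, minus strand and Cdc20 at chr4:118437294-118437593, minus strand.
Top2a: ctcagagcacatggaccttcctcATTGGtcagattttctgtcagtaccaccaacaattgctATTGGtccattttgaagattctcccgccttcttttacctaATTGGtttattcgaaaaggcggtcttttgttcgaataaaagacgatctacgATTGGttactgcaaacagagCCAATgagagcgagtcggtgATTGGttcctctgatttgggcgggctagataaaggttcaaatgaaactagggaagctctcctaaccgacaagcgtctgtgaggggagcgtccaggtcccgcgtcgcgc
Ccnb1: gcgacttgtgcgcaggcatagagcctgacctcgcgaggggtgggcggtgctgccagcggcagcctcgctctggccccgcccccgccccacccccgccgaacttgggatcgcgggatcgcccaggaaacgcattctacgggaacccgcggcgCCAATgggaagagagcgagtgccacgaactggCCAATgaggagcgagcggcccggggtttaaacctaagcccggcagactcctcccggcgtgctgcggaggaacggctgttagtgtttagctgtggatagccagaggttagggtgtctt
Cdc20: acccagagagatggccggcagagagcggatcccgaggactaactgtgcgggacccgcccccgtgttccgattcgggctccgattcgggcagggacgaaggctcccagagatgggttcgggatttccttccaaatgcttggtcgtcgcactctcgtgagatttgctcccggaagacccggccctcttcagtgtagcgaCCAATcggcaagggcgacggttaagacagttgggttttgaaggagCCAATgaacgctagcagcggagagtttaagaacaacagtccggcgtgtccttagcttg
The letters stood 6 times in the Top2a promoter and 2 times each in Ccnb1 and Cdc20. On either strand they were in 21 of 25 promoters of the mitosis list (84.0%), in 43.5% of measured genes with a promoter and in 37.4% of all promoters.

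Top2a, the topoisomerase that untangles chromosomes, was at 4.20 FPKM in FLAG, 16.3 in sh-Luc, 6.31 in sh-CACUL1 and 3.60 in FLAG-CACUL1. Ccnb1, cyclin B1, was at 4.14 FPKM in FLAG, 14.2 in sh-Luc, 4.86 in sh-CACUL1 and 2.34 in FLAG-CACUL1, and Cdc20, an activator of the anaphase-promoting complex, at 3.30 FPKM in FLAG, 11.7 in sh-Luc, 5.67 in sh-CACUL1 and 2.29 in FLAG-CACUL1. sh-Luc was the highest line in each. Mki67, the proliferation marker, differed by only -0.35 with 3.40 FPKM in FLAG and 4.62 in sh-Luc. Among the replication genes, Mcm5, a subunit of the replicative helicase, was at 2.31 FPKM in FLAG, 11.3 in sh-Luc, 4.04 in sh-CACUL1 and 1.28 in FLAG-CACUL1, and Mcm6, another, at 5.29 FPKM in FLAG, 18.7 in sh-Luc, 7.08 in sh-CACUL1 and 4.27 in FLAG-CACUL1.

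G1 regulators were mostly level, with 2 of 20 at least 2-fold higher in FLAG, Cdkn2d (1.29) and Cdkn1a (1.08), and 3 in sh-Luc, Ccnd1 (-3.62), Cdk6 (-1.11) and Cdk2 (-1.10). Ccnd1, cyclin D1, stood furthest apart at 6.46 FPKM in FLAG, 90.8 in sh-Luc, 25.1 in sh-CACUL1 and 81.3 in FLAG-CACUL1, a log2 difference of -3.62, with FLAG as the low line. Ccnd2 and Ccnd3 had 52.6 FPKM in FLAG and 60.1 in sh-Luc and 79.7 FPKM in FLAG and 64.9 in sh-Luc. Cdkn1a, the inhibitor p21, was higher in FLAG at 172 FPKM in FLAG, 80.7 in sh-Luc, 76.6 in sh-CACUL1 and 246 in FLAG-CACUL1. Of 19 genes of the p53 list, which include it, 4 were higher in FLAG, Gadd45a (1.71), Fas (1.53), Bbc3 (1.23) and Cdkn1a (1.08), and 4 in sh-Luc, Sesn1 (-2.23), Mdm2 (-1.79), Trp53 (-1.42) and Plk2 (-1.14). Trp53 encodes p53 itself and is not one of its targets.

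Motifs were also counted on the 2 sides of the comparison. Among the 50 genes furthest apart with at least 1 FPKM in both controls, 34 had a promoter in each direction. The core ACGTG or GCGTG, chosen after the values were seen, was in 24 of 34 on the FLAG side (70.6%) and 14 of 34 on the sh-Luc side (41.2%). Its share was 66.7% in measured genes with a promoter. A CCAAT box was in 12 of 34 on the FLAG side and 18 of 34 on the sh-Luc side, TATAAA in 3 and 4, the E-box CACGTG in 3 and 4 and a CArG box in 1 and 1. Neither 2 copies of AGGTCA spaced by 1 base, the letters of a PPAR element, nor the C/EBP palindrome TTGCGCAA was found in any of them, which says only that these letters are not in this window. Both strands were searched, and they were in 0.0396% and 0.183% of all promoters.

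Splicing factor genes leaned towards sh-Luc, and proteasome genes did so to a smaller extent. Of 36 splicing factors, 12 were at least 2-fold higher in sh-Luc, Srsf3 (-1.68), Srsf6 (-1.55), Srsf5 (-1.51), Hnrnph1 (-1.46), Prpf19 (-1.44), Hnrnpm (-1.42), Son (-1.42), Srsf11 (-1.25), Srsf1 (-1.17), Ddx5 (-1.14), U2af2 (-1.04) and Srsf2 (-1.02), and 0 in FLAG (median -0.63 from all genes), and 7 stayed so under median-of-ratios scaling. Srsf3, a serine-rich splicing factor, was at 19.5 FPKM in FLAG, 64.5 in sh-Luc, 55.8 in sh-CACUL1 and 45.6 in FLAG-CACUL1. Of 31 constitutive proteasome subunits, 6 were higher in sh-Luc, Psmd6 (-1.57), Psmc2 (-1.49), Psmd1 (-1.41), Psmc5 (-1.31), Psmd7 (-1.30) and Psmc3 (-1.06), and 0 in FLAG. The list median was -0.33 from all genes, and 25 of the 31 were within 2-fold. The immunoproteasome subunits Psmb8 and Psmb9 described above were higher in FLAG. Psmb10, the other such subunit, had 22.5 FPKM in FLAG and 20.2 in sh-Luc. Psmd6, a subunit of the cap, had 19.7 FPKM in FLAG and 60.4 in sh-Luc. Ribosomal protein genes were mostly within 2-fold, with 3 of 76 higher in FLAG, Fau (1.38), Rps14 (1.22) and Rplp2 (1.12), and 0 in sh-Luc (median 0.39 from all genes).

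Endoplasmic reticulum chaperones counted 4 of 20 higher in FLAG, P4hb (2.04), Hspa5 (1.90), Xbp1 (1.65) and Dnajb9 (1.48), and 1 in sh-Luc, Dnajc3 (-1.14). P4hb, protein disulfide isomerase, was at 2529 FPKM in FLAG, 616 in sh-Luc, 499 in sh-CACUL1 and 917 in FLAG-CACUL1, and Hspa5, BiP, at 1441 FPKM in FLAG, 386 in sh-Luc, 546 in sh-CACUL1 and 669.6 in FLAG-CACUL1. Of 26 NRF2 antioxidant genes, 3 were higher in FLAG, Hmox1 (1.99), Tkt (1.22) and Sod2 (1.21), and 7 in sh-Luc, Nqo1 (-2.37), Sod3 (-2.30), Gsta4 (-2.13), Prdx6 (-2.09), Aox1 (-1.66), Txnrd1 (-1.33) and Prdx1 (-1.03). Nqo1, a quinone reductase and classical NRF2 target, was at 10.1 FPKM in FLAG, 56.3 in sh-Luc, 13.0 in sh-CACUL1 and 7.79 in FLAG-CACUL1, and Hmox1, haem oxygenase 1, at 924 FPKM in FLAG, 232 in sh-Luc, 187 in sh-CACUL1 and 361 in FLAG-CACUL1. These 2 members thus lay on opposite sides. Of 17 heat shock genes, 5 were higher in sh-Luc, Hsph1 (-1.66), Dnaja1 (-1.60), Hspb8 (-1.59), Hsf1 (-1.44) and Hspa4 (-1.01), and 1, Hspa9 (1.22), a mitochondrial chaperone, in FLAG. ATF4 amino acid response genes counted 7 of 21 in FLAG, Vldlr (3.07), Nupr1 (2.39), Atf3 (2.02), Ddit3 (1.92), Trib3 (1.78), Chac1 (1.42) and Aldh18a1 (1.10), and 2 in sh-Luc, Phgdh (-1.85) and Shmt2 (-1.11). Atf4 itself differed by -0.09. Of 18 lysosomal genes, 3 were higher in FLAG, Ctsz (1.43), Lipa (1.20) and Ctsa (1.12), and 3 in sh-Luc, Gusb (-2.48), Ctsk (-2.01) and Hexa (-1.36).

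Reference genes were not all level between the controls. Of 16 housekeeping genes, 4 were at least 2-fold higher in FLAG and 3 in sh-Luc (median -0.01 from all genes). Those in FLAG were Pgk1 (2.81), Gapdh (2.77), Hprt (1.45) and B2m (1.02), and those in sh-Luc Gusb (-2.48), Actb (-1.09) and Ppia (-1.03). Several of them are counted in other lists too, Pgk1 and Gapdh with hypoxia and glycolysis and B2m with MHC class I. Gusb is also in the lysosomal list and Actb in the contractile list. The direction of these 2-fold differences held under each scaling, but Actb and Ppia stood at -0.80 and -0.74 after median-of-ratios scaling, and B2m at 0.51 after quantile normalization. Eef1a1 (0.71) and Tfrc (0.27) were within 2-fold on the FLAG side, and Ywhaz (-0.56) and Polr2a (-0.84) on the sh-Luc side. Sdha (-0.12), Rplp0 (-0.28) and Tbp (-0.34) were within 2-fold as well, and of these Sdha and Rplp0 changed sign under median-of-ratios scaling, to 0.17 and 0.02.

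The 10 highest genes of each control had 3 in common, Fth1, Ftl1 and Eef1a1. Fth1 and Ftl1 encode ferritin, and Fth1 was the highest gene of sh-Luc at 4665 FPKM in FLAG, 7808 in sh-Luc, 3751 in sh-CACUL1 and 12208 in FLAG-CACUL1, with Ftl1 at 3397 FPKM in FLAG, 2830.4 in sh-Luc, 1632 in sh-CACUL1 and 6525 in FLAG-CACUL1. Ftl1 shares 57.7% and Eef1a1 49.8% of 31-base stretches with other genes or pseudogenes. The rest of the FLAG group were Gapdh, Bsg, Fabp4, Mt2, Mt1, B2m and Ero1l, and the rest of the sh-Luc group included Rpl41, S100a4, Rps12, Ppia, Lgals1 and Tpt1. Lgals1, galectin-1, had 717 FPKM in FLAG and 2271 in sh-Luc. The 10 genes held 10.2% of all FPKM in FLAG and 7.16% in sh-Luc.

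Of the genes at the centre of the study, Cacul1 and Kdm1a were close to level between the controls and Sirt1 was lower in FLAG. Cacul1 was at 9.61 FPKM in FLAG, 10.2 in sh-Luc, 5.39 in sh-CACUL1 and 11.8 in FLAG-CACUL1, with a log2 difference of -0.09 whose sign changed to 0.18 under median-of-ratios scaling. Kdm1a, the histone demethylase LSD1, had 19.4 FPKM in FLAG and 18.9 in sh-Luc, a log2 difference of 0.03 that became -0.14 after each library was rescaled to the same sum. Sirt1, a deacetylase, was at 0.602 FPKM in FLAG, 2.69 in sh-Luc, 1.35 in sh-CACUL1 and 2.24 in FLAG-CACUL1, a log2 difference of -1.21 at levels near 1 FPKM. Among 18 chromatin enzymes of the study, 3 were higher in sh-Luc, the other 2 being Ep300 (4.32 against 11.4 FPKM, FLAG first) and Crebbp (3.22 against 8.00 FPKM), both acetyltransferases.

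Differences were not spread evenly over the chromosomes. Over 10016 genes with a chromosome and at least 1 FPKM in both controls, the median was -0.25. By chromosome it ran from -0.50 on chromosome 10 to 0.19 on the X chromosome, a span of 0.69, which was 0.77 with at least 5 FPKM in both. Chromosome 18 (0.18, 259 genes), chromosome 7 (0.00, 720 genes) and chromosome 4 (-0.02, 621 genes) followed, and chromosomes 13, 3, 11 and 15 between -0.47 and -0.44. The interquartile ranges of all chromosomes overlapped. 3T3-L1 cells are aneuploid, and the copy number of the lines was not measured here.

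**Figure D5:**
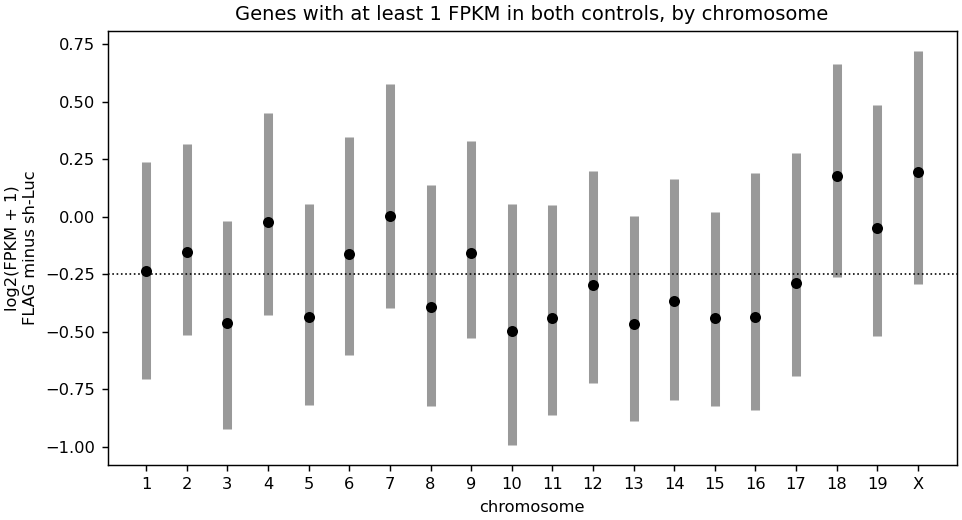
Differences on the log2(FPKM + 1) scale (FLAG minus sh-Luc) of genes with at least 1 FPKM in both controls, by chromosome. Black points are medians, grey bars the quartiles and the dotted line the median of all these genes, -0.25. Chromosomes 18 and X lie highest, at 0.18 and 0.19.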

How the data were processed

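RNA of day 8 was sequenced from 4 stably transfected 3T3-L1 lines, 1 sample each. A company prepared and sequenced the libraries. The authors deposited FPKM values per transcript accession or gene for each sample. The submitters' processing notes name the mouse build mm10, and the aligner, the FPKM program and the strand setting are not given in the sources used here. Of 13110 rows, 12914 were named from GENCODE M21 and 149 from a RefSeq table, and 47 had no symbol. For 25 symbols, 50 rows were summed, leaving 13085 genes. No row was at 0 in any line, so all counts and shares cover only genes with a value above 0 in all 4 lines.

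Differences were log2(FPKM + 1) in FLAG minus sh-Luc with a pseudocount of 1 FPKM, and genes at least 2-fold apart were counted, each count beside that over all genes. With 1 sample per line no test was made, and the authors' unit keeps no counts for a count model. Depth was estimated from the smallest steps of FPKM in genes with a single transcript, 3000 bases or longer, and 1 FPKM on 2 kb stands for about 29.0 fragments in FLAG and 47.9 in sh-Luc. The 53 gene lists (1199 entries, 1048 measured), the comparison and the naming rule were chosen with earlier results of these data known. The rule named the 10 genes furthest apart in each direction with at least 1 FPKM in both controls, the 5 furthest with under 1 FPKM in one control and at least 5 in the other, the 10 highest genes of each control, up to 6 members of a list furthest apart with its first 4 and those against its direction, the housekeeping genes, and Cacul1, Sirt1 and Kdm1a. Further members were named after their values were seen. Some genes that the rule takes are counted but not reported here. Sequence shared with other genes was counted as stretches of 31 bases over annotated transcripts for 112 genes. Promoters of 10202 measured genes were matched by symbol in RefSeq, and motifs were searched on both strands. The alternatives changed the pseudocount, the filter on low values, the scaling, the fold and the handling of rows that share a symbol. The scripts were tested on simulated data and used Python 3.11.15, pandas 2.3.3, numpy 2.4.6, scipy 1.17.1 and matplotlib 3.10.9.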

Additional observations from a re-analysis of the deposited data

How the results depend on the processing

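With 1 sample per line, no replicate could be left out, and no difference has a replicate check. No paired analysis was possible because each line had 1 sample. The counts moved with the settings and the cause was not tested. The 2750 genes at least 2-fold apart became 4711 without a pseudocount and 994 at 3-fold. The 1123 higher in FLAG became 1762 without a pseudocount and 537 at 3-fold. The 1627 higher in sh-Luc became 2568 with a pseudocount of 0.1 FPKM, 2949 without one, 937 after median-of-ratios scaling, 2725 after rescaling to the same sum and 457 at 3-fold. The median of all genes, -0.18, was -0.30 without a pseudocount, -0.066 after quantile normalization, -0.0049 after median-of-ratios scaling and -0.38 after rescaling to the same sum. Of 53 lists, 11 had a median at least 1 log2 unit from that of all genes, 9 of them under every alternative, and the other 2 were lipid droplet proteins, at 0.98 after quantile normalization, and mitosis genes, at -0.96 with at least 1 FPKM in both controls. Other lists came to 1 log2 unit or more under some alternative. TGF-β genes were at 1.02 and chemokine and cytokine genes at 1.00 without a pseudocount. Interferon-stimulated genes were at 1.10 with a pseudocount of 0.1 and 1.13 without one. Clock genes were at 1.20 with a pseudocount of 0.1, 1.24 without one, 1.03 and 1.02 with at least 1 FPKM in either or both controls, 1.04 after quantile normalization and 1.09 after rescaling to the same sum. Macrophage and leukocyte markers were at 1.97 with a pseudocount of 0.1, 2.66 without one, 2.29 with at least 1 FPKM in either control and 1.21 after rescaling to the same sum. No list median at least 1 log2 unit from all genes changed direction. Subtracting the median of all genes takes out much of a change in scaling. Of 326 named genes at least 2-fold apart, 0 changed sign under any alternative, while 30 came under 2-fold after median-of-ratios scaling, 27 after quantile normalization and 12 after rescaling to the same sum. A change of pseudocount or low-value filter cannot turn the sign of a gene, and these genes were picked for being at least 2-fold apart. The unchanged signs are therefore no check of the differences. Depth limits the low genes, since FLAG was estimated at 14500000 fragments against 24000000 in sh-Luc.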
